A study of Mus musculus with 27 samples.

Results

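The ATF4 stress and amino acid genes followed here in mouse thyroid gland organoids (mTGOs) are Atf4, Ddit3, Trib3, Chac1, Asns, Psat1, Phgdh, Mthfd2, Slc7a11 and Slc3a2. They are 10 of the 50559 genes in the table, and all 10 had counts in all 27 libraries and passed the filter on low counts in every fit. They were chosen by a measured value: Trib3 had been seen to be lower after 7 Gy than after 0 Gy at day 11, and the question was whether other genes that ATF4 is known to control were lower with it. The 7 Gy against 0 Gy values at day 11 are therefore given as a description without p-values, and nothing is read from counts of genes passing a test there.

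Cells from the thyroid glands of C57BL/6 mice 8-12 weeks old were grown as organoids in Matrigel with EGF, FGF2, the ROCK inhibitor Y27632 and B27. After 5 days of growth the organoids were left unirradiated (0 Gy) or received 2, 4 or 7 Gy of photons. RNA was sequenced at day 5 (0 Gy only), day 7 (0, 2, 4 and 7 Gy) and day 11 (0, 2, 4 and 7 Gy). Each of these 9 groups held 3 libraries, from the cultures mTG11, mTG12 and mTG14, so that every culture gave a library to every group. No group carried a transgene, and the only difference between groups that the labels give was the day of collection and the dose.

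Library totals ranged from 2528866 to 5723150 counts, and levels are given as counts per 1000000 counts of the library (CPM), so that 3 counts, taken as the smallest amount read as detected, correspond to 0.524 to 1.19 CPM. The thyroid label was only partly borne out by markers of follicular cells: Slc5a5 had 6 counts in all libraries together, Tshr 11 and Pax8 23.2, and Tg averaged 2.74 CPM, while the thyroid transcription factors Foxe1 and Nkx2-1 averaged 29.8 and 12.5 CPM. Keratins of basal and stratified epithelium were abundant, with a mean of 4041 CPM for Krt5.

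ATF4 is the transcription factor that cells make when the initiation factor eIF2α is phosphorylated, which happens under endoplasmic reticulum stress, amino acid shortage and other stresses. It is controlled largely at translation, so that its mRNA level reports only a part of its activity. With partners of the C/EBP family it binds C/EBP-ATF response elements and switches on genes for amino acid synthesis, amino acid uptake and tRNA charging, together with genes that close the response down or lead to cell death. Among the genes described here, Ddit3 encodes the factor CHOP, Trib3 a pseudokinase that restrains ATF4 and AKT signalling, and Chac1 an enzyme that degrades glutathione. Asns makes asparagine, Phgdh and Psat1 carry out the first steps of serine synthesis, and Mthfd2 acts in mitochondrial one-carbon metabolism. Slc7a11 and Slc3a2 form the cystine-glutamate exchanger, Slc3a2 also being the heavy chain of other amino acid transporters.

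On GRCm39 (GENCODE annotation) the 10 genes lie at these positions: Atf4 at chr15:80139372-80141745 (plus strand), Ddit3 at chr10:127126698-127129622 (plus), Trib3 at chr2:152179337-152191958 (minus), Chac1 at chr2:119180757-119184866 (plus), Asns at chr6:7671667-7728461 (minus), Psat1 at chr19:15882039-15924701 (minus), Phgdh at chr3:98220484-98255047 (minus), Mthfd2 at chr6:83282673-83302890 (minus), Slc7a11 at chr3:49846975-50398070 (minus) and Slc3a2 at chr19:8684245-8701108 (minus). The strand setting of the counting is not given in the sources used here, so reads from genes that overlap on the opposite strand cannot be told apart. This touches Ddit3, which overlaps Mars1 (6812 counts in all libraries), and Slc3a2, which overlaps Snhg1 (3403 counts). Phgdh counts were fractional in all but 3 of the 27 libraries, for a reason not given in the sources used here, and its values are uncertain.

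The core of the C/EBP-ATF response element, TGATGNAA, was looked for on both strands of the RefSeq promoters, from 250 bases before to 50 bases after each RefSeq start. It was present at 4 of the 10 genes, against 4.51% of all 27025 genes searched (1219 genes), and the 5 matches are printed with 11 bases on each side because they show the element that the genes' common regulator is known to bind. Each line is read 5′ to 3′ on the strand of the gene, from RefSeq promoters matched to GRCm39, with the match in capitals.
Trib3, chr2:152185948-152185977, match on the opposite strand: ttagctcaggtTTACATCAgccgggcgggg
Chac1, chr2:119181519-119181548, match on the opposite strand: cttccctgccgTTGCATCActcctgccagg
Asns, chr6:7693214-7693243, match on the gene's strand: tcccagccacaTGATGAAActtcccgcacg
Slc7a11, chr3:50398110-50398139, match on the gene's strand: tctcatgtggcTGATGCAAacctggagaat
Slc7a11, chr3:50398091-50398120, match on the opposite strand: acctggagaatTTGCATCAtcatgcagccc
Distances are counted from the RefSeq start of the promoter, which can lie far inside the gene span given above. The match began 23 bases before this start at Asns and 193 bases before it at Chac1. At Slc7a11, where the printed windows overlap, the matches began 66 and 47 bases before it. At Trib3 the match began 15 bases after it. At Atf4, Ddit3, Psat1, Phgdh, Mthfd2 and Slc3a2 these letters were not found within this window, which says nothing of elements elsewhere. Levels of the genes with and without a match are given by role below.

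Over the days of culture without irradiation, the stress genes rose, most of all between day 7 and day 11, and Psat1, Phgdh and Slc7a11 fell between day 5 and day 7. At day 5 Trib3 had 7.24, 11.0 and 10.3 CPM in the cultures mTG11, mTG12 and mTG14, the order used throughout. It had 10.9, 14 and 14.2 CPM by day 7 and 45.2, 41.8 and 58.6 CPM by day 11. All day 11 libraries lay far above all earlier ones, and the day 5 and day 7 libraries overlapped narrowly. Chac1 followed the same course, from 4.83, 6.46 and 9.12 CPM through 8.86, 7.69 and 9.26 CPM to 30.5, 39.9 and 44.8 CPM. Ddit3 started at 4.14, 8.36 and 9.12 CPM, stood at 7.30, 11.9 and 13.4 CPM on day 7 and reached 28.3, 20.1 and 25.6 CPM on day 11. Atf4 itself moved less, from 232, 252 and 243 CPM to 319, 306 and 297 CPM and then to 479, 446 and 496 CPM, and its libraries did not overlap between any of the 3 days.

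The genes of amino acid metabolism differed from the stress genes mainly between day 5 and day 7. Psat1 went from 266, 222 and 242 CPM to 138, 104 and 131 CPM by day 7 and had 132, 86.9 and 129.8 CPM by day 11, so that its level was lower at day 7 and stayed in that range. Phgdh went from 104, 114 and 98.6 CPM to 56.5, 52.3 and 45.7 CPM and then to 80.2, 60.6 and 74.5 CPM. Slc7a11 started at 112, 111 and 101 CPM, stood at 51.6, 45.9 and 47.2 CPM on day 7 and at 62.4, 63.3 and 67.9 CPM on day 11. These genes were highest at day 5, where each library lay above each later one.
Asns had 64.8, 79.1 and 84.7 CPM at first, 61.0, 56.5 and 57.6 CPM by day 7 and 126, 94.4 and 156 CPM by day 11. In CPM it was thus lowest at day 7 and highest at day 11. Mthfd2 showed the same order in CPM, with 38.6, 49.8 and 35.1 CPM, then 25.0, 29.2 and 25.2 CPM, then 83.1, 60.6 and 82.8 CPM. The falls of Asns and Mthfd2 from day 5 to day 7 did not pass the test given below. Slc3a2 lay between 159 and 175 CPM in the 6 libraries of days 5 and 7 and had 259.7, 239 and 265 CPM at day 11, above all of them.

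**Figure D1:**
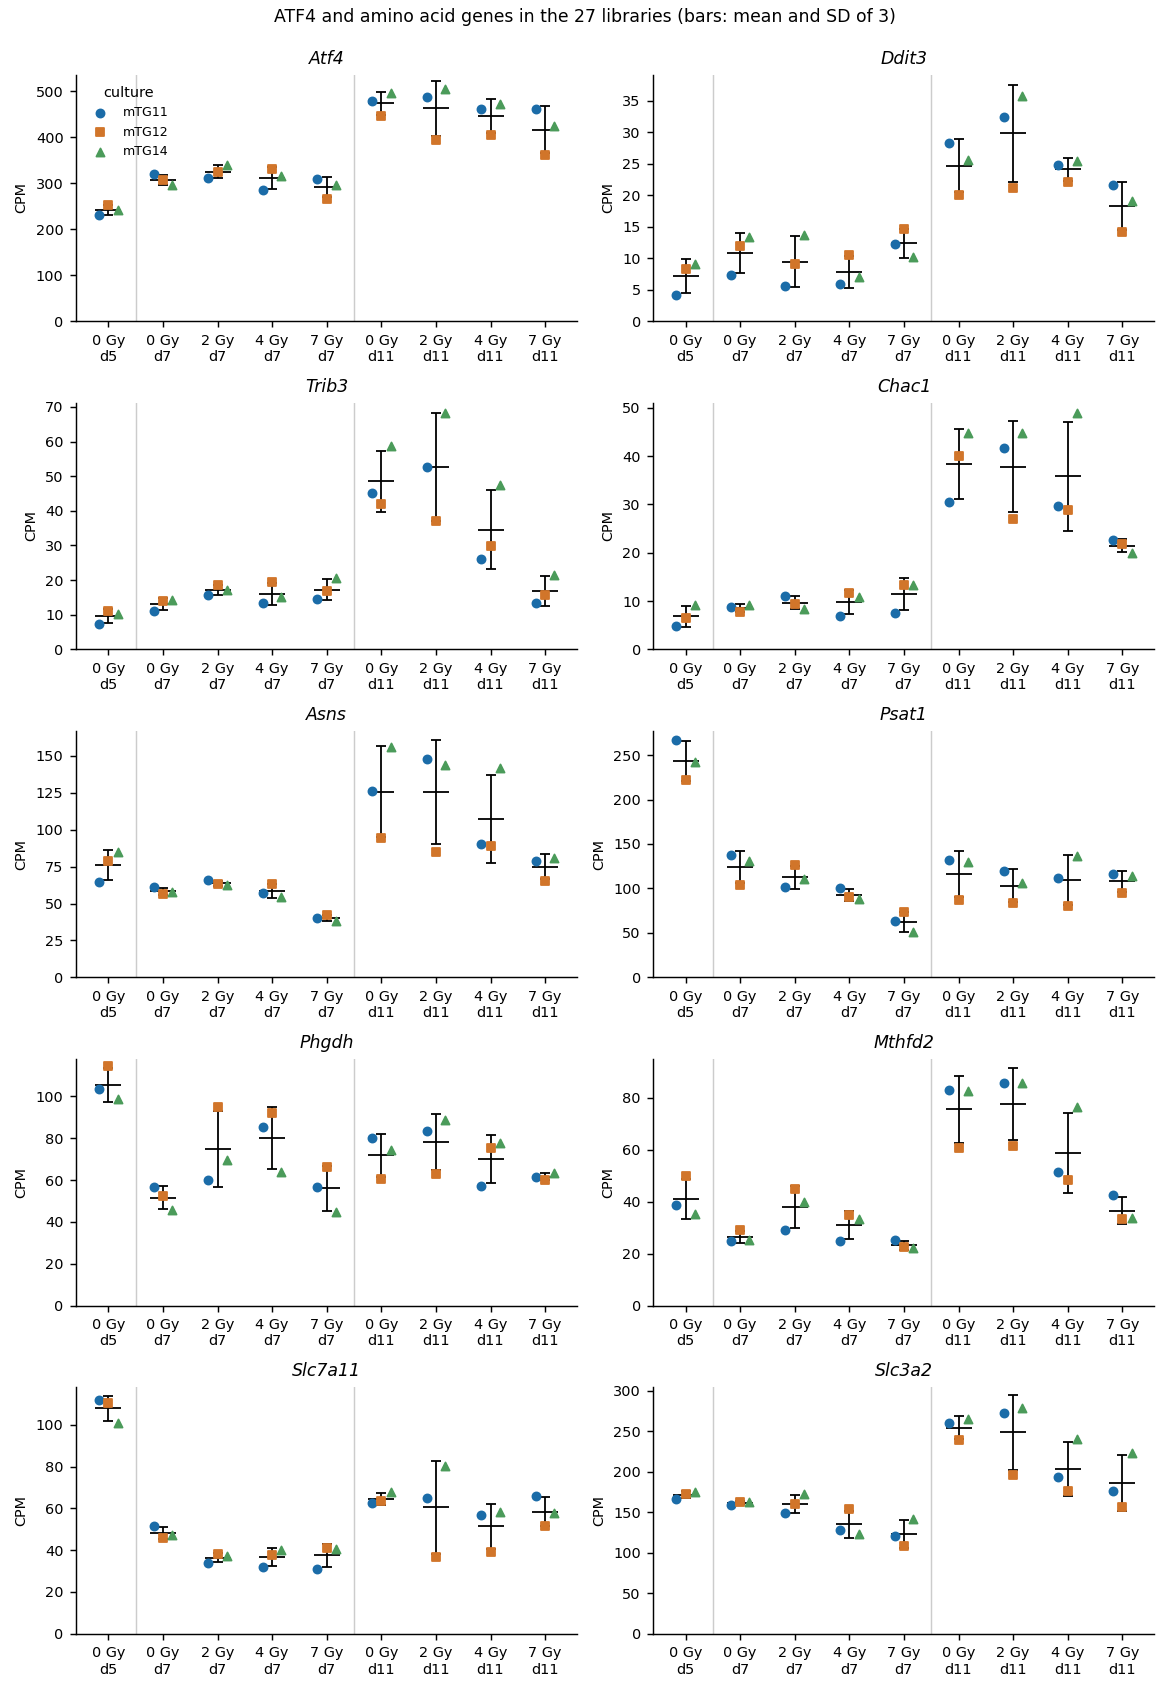
CPM (linear axis from 0) of the 10 genes in all 27 libraries, by dose (Gy) and day (d), with the 3 cultures as circles, squares and triangles and the mean and SD of 3 libraries as black bars. Chac1, Trib3 and Ddit3 are low at days 5 and 7 and high at day 11, Psat1, Phgdh and Slc7a11 are highest at day 5, and Trib3 at day 11 lies lower at 7 Gy, between 13.3 and 21.6 CPM, than at 0 Gy, between 41.8 and 58.6 CPM.

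From day 5 to day 7, 4 of the 10 genes were called, by edgeR's quasi-likelihood test at an adjusted p under 0.05 over all genes tested. Across all 18442 genes the share called in this comparison was 21.6%. Atf4 rose (log2 fold change 0.49 ± 0.08 SE, edgeR adjusted p = 0.0012), while Slc7a11 fell by 1.01 on the log2 scale (SE 0.09, edgeR adjusted p = 3.44e-05), Phgdh by 0.89 (SE 0.12) and Psat1 by 0.82 (SE 0.16). Asns (-0.24 ± 0.17, edgeR adjusted p = 0.377) and Mthfd2 (-0.48 ± 0.17, edgeR adjusted p = 0.0692) did not pass. With the culture as a block edgeR called 5, beside 25.0% of all genes, the fifth being Trib3 (log2 fold change 0.62, edgeR adjusted p = 0.0353, against 0.0848 without the block). Without the filter on low counts it called 7, beside 16.8% of all genes. The median of the 10 genes was -0.09, beside 0.04 over all genes tested.

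From day 7 to day 11, 9 of the 10 genes rose, beside 9.57% of all genes called higher. The fitted rises were 4.44-fold for Chac1 (log2 fold change 2.15 ± 0.21 SE, edgeR adjusted p = 2.33e-05), 2.85-fold for Mthfd2, 2.26-fold for Ddit3, 2.15-fold for Asns, 1.57-fold for Slc3a2, 1.54-fold for Atf4, 1.39-fold for Phgdh and 1.33-fold for Slc7a11. For Trib3 the rise was 3.71-fold (1.89 ± 0.19), in day 11 libraries that also served as the controls of the contrast in which the gene was noticed, so no p is given for it. Psat1 did not pass the test (-0.09 ± 0.16, edgeR adjusted p = 0.748). The median log2 fold change was 0.88 in these genes and 0.00 over all genes tested. The Phgdh call was lost without mTG14 of day 7, or mTG11 or mTG14 of day 11 (edgeR adjusted p = 0.0553, 0.0549 or 0.0524). Its log2 fold change in these smaller fits was 0.42, 0.40 or 0.43.
Between day 5 and day 11 all 10 genes were called, 7 higher and 3 lower, beside 21.3% and 20.1% of all genes, and the 3 lower ones were Psat1, Phgdh and Slc7a11. Chac1 was 6.11-fold and Trib3 5.64-fold higher, both with the day 11 controls named above, while Psat1 was 1.89-fold lower. The Phgdh call was lost without mTG12 of day 5 (edgeR adjusted p = 0.0502).

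Other cells and other states moved over the same days. Of all 18442 genes tested, 1764 were called higher from day 7 to day 11 and 2150 lower. The 14 proliferation genes summed to 1316 to 1458 CPM at first, to 636 to 788 CPM on day 7 and to 191 to 215 CPM on day 11, and 14 of 14 fell from day 7 to day 11. Markers of basal and stratified epithelium summed to 18761 to 20574 CPM at day 7 and 8138 to 9991 CPM at day 11 (6 of 8 lower). Multiciliated cell markers went from 5.92 to 9.01 CPM to 33.0 to 68.1 CPM (5 of 5 higher), and the 9 fibroblast markers from 208 to 398 CPM to 159 to 256 CPM (3 of 9 lower, or 5 with the culture as a block). Follicular cell markers summed to 40.0 to 49.7 CPM and 96.8 to 135 CPM (2 of the 6 tested were higher). The part of these cells in the results was not tested, and in bulk RNA fewer cells of a type and less RNA per cell cannot be told apart.

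Other genes of the same pathway were taken from lists. Their counts stand beside 9.57% of all genes called higher, and 2150 of all 18442 genes called lower. Of 15 ATF4 partners and stress response targets, 11 rose from day 7 to day 11, with a median log2 fold change of 1.20. Among them were Atf5, a relative of ATF4 (149.7 ± 28.2 CPM at day 11 and 51.1 ± 9.7 CPM at day 7, SD, n = 3), the stress protein gene Nupr1 (935 ± 148 and 323 ± 20.3 CPM) and Atf3 (43.2 ± 3.0 and 14.5 ± 7.5 CPM). Of 20 aminoacyl-tRNA synthetases, the enzymes that charge tRNAs with amino acids, 10 rose, with Yars (0.84 ± 0.13), Wars (0.70 ± 0.15) and Mars1 (0.65 ± 0.10) the largest on the log2 scale, and Qars fell by 0.60. The list's median was 0.34. Mars1 is the gene that overlaps Ddit3 on the other strand, and it went from 52.4 ± 4.7 to 82.2 ± 2.1 CPM.
The list of serine, one-carbon and proline synthesis was split, with 3 of 12 higher and 3 lower and a median of -0.14. Pycr1 and Aldh18a1, enzymes of proline synthesis, and the aminotransferase Gpt2 rose (1.45, 0.63 and 0.84 on the log2 scale), while Shmt1, Mthfd1 and Shmt2 of the folate cycle fell by 0.73, 0.61 and 0.51. Of 10 amino acid transporters 3 rose, namely the glycine transporter Slc6a9 (1.02 ± 0.17), Slc1a4 (0.56 ± 0.17) and Slc7a5 (0.54 ± 0.16), the last a light chain that pairs with Slc3a2. The arm of the unfolded protein response run by ATF6 and XBP1 had 5 of 19 genes higher, with Atf6 itself at 0.88 ± 0.17, and 6 lower, with a median of -0.07, and the eIF2α kinases and phosphatases had 1 of 7 higher, Ppp1r15b (0.47 ± 0.12), and 1 lower, Ppp1cc (-0.46 ± 0.12).

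At day 7, in libraries that the choice of genes had not used, Psat1, Asns and Slc3a2 fell with dose, and Atf4, Ddit3, Trib3 and Chac1 did not pass the test at any dose. Psat1 had 138, 104 and 131 CPM at 0 Gy, 101, 126 and 110.3 CPM at 2 Gy, 100.3, 90.4 and 87.6 CPM at 4 Gy and 63.4, 73.5 and 50.6 CPM at 7 Gy. All libraries of 4 and 7 Gy lay below all of 0 Gy. Asns had 61.0, 56.5 and 57.6 CPM at 0 Gy, 65.6, 63.4 and 62.4 CPM at 2 Gy, 57.1, 63.5 and 54.1 CPM at 4 Gy and 40.4, 42.4 and 38.3 CPM at 7 Gy. Only the 7 Gy libraries of Asns stood below the others, and those of 2 Gy stood just above the controls. Slc3a2 had 159, 163 and 162 CPM at 0 Gy, 149, 159.6 and 172 CPM at 2 Gy, 128, 154 and 124 CPM at 4 Gy and 121, 108 and 142 CPM at 7 Gy, again with both higher doses below the controls.

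Against 0 Gy, 7 Gy gave 3 of the 10 genes lower at day 7, beside 3.75% of all 19346 genes tested. Psat1 fell by 1.0 on the log2 scale (SE 0.14, edgeR adjusted p = 0.000661), to 50.3% of the control mean, and was lower in 3 of 3 cultures. Asns fell by 0.54 (SE 0.09, edgeR adjusted p = 0.00238), to 69.2% of the control mean, also in 3 of 3 cultures. Slc3a2 fell by 0.39 (SE 0.11, edgeR adjusted p = 0.0483), a call lost when any 1 control library, or mTG11 or mTG12 of 7 Gy, was left out, with adjusted p-values from 0.0791 to 0.207. With the culture as a block edgeR called 4 lower, Slc7a11 being added, beside 6.0% of all genes. The median of the 10 genes was -0.14, beside 0.01 over all genes. The same 3 genes declined in the fit on dose as a number, by 0.14 per Gy for Psat1 (SE 0.02, edgeR adjusted p = 0.000212), 0.08 for Asns (SE 0.02, adjusted p = 0.00766) and 0.06 for Slc3a2 (SE 0.02, adjusted p = 0.0166), beside 4.72% of all genes with a falling slope. Between 7 and 2 Gy, which share no library, Psat1 fell by 0.84 (SE 0.14) and Asns by 0.64 (SE 0.09), 2 of the 10 genes beside 0.553% of all genes lower. Mthfd2 was the third with the culture as a block (-0.69, edgeR adjusted p = 0.0166, against -0.71 and 0.0699 without it), beside 1.52% of all genes.

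The partner of Slc3a2 behaved differently at day 7. Slc7a11 had 51.6, 45.9 and 47.2 CPM at 0 Gy, 34.0, 38.1 and 37.3 CPM at 2 Gy, 32.1, 37.6 and 40.3 CPM at 4 Gy and 31.1, 40.9 and 40.4 CPM at 7 Gy. Every irradiated library lay below every control, at 75.6%, 76.0% and 77.7% of the control mean, so that the lowest dose was already at the level of the highest. The fitted differences were -0.43 ± 0.13, -0.44 ± 0.13 and -0.37 ± 0.13 on the log2 scale and did not pass the test (edgeR adjusted p = 0.381, 0.107 and 0.0945), whereas with the culture as a block those of 4 and 7 Gy did (adjusted p = 0.0308 and 0.0431).
Phgdh was in the opposite direction, with 56.5, 52.3 and 45.7 CPM at 0 Gy, 60.0, 94.9 and 69.6 CPM at 2 Gy, 85.1, 91.8 and 63.7 CPM at 4 Gy and 56.9, 66.3 and 44.9 CPM at 7 Gy. Libraries of 2 and 4 Gy lay above the controls and those of 7 Gy overlapped them. The 4 Gy difference (0.59 ± 0.17) had an adjusted p of 0.116 without and 0.0105 with the culture as a block in edgeR. Mthfd2 had 25.0, 29.2 and 25.2 CPM at 0 Gy, 29.3, 44.9 and 39.8 CPM at 2 Gy, 24.8, 34.7 and 33.3 CPM at 4 Gy and 25.1, 22.4 and 22.1 CPM at 7 Gy. Its 2 Gy libraries were all above the controls by a small margin (0.51 ± 0.17, edgeR adjusted p = 0.403).

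Among the stress genes at day 7, Trib3 had 10.9, 14 and 14.2 CPM at 0 Gy, 15.8, 18.5 and 17.2 CPM at 2 Gy, 13.4, 19.6 and 15.2 CPM at 4 Gy and 14.5, 16.7 and 20.5 CPM at 7 Gy. In each culture each irradiated library was above that culture's control, 1.07 to 1.45 times, and at 2 and 7 Gy the groups did not overlap. The fitted differences of 0.38 ± 0.19, 0.26 ± 0.18 and 0.39 ± 0.18 did not pass the test (edgeR adjusted p = 0.625, 0.559 and 0.236), nor with the culture as a block. Chac1 at 7 Gy had 7.52, 13.4 and 13.3 CPM against 8.86, 7.69 and 9.26 CPM in the controls (0.39 ± 0.24, edgeR adjusted p = 0.383), and Ddit3 12.3, 14.6 and 10.1 CPM against 7.30, 11.9 and 13.4 CPM (0.17 ± 0.29, adjusted p = 0.791). Atf4 lay between 267 and 339.6 CPM in the 9 irradiated libraries of day 7 and between 297 and 319 CPM in the controls.

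At 2 Gy at day 7, edgeR called 0 of the 10 genes, 3 had an unadjusted p under 0.05, DESeq2 called 0 and all genes together had 0.124% called, and without the filter on low counts edgeR called 1, beside 1.42%. At 4 Gy edgeR called 0, with 4 at an unadjusted p under 0.05, 1 by DESeq2 (Psat1) and 3 with the culture as a block (Psat1 and Slc7a11 lower, Phgdh higher), beside 1.63% of all genes without and 5.22% with the block, and 3.03% by DESeq2. Without the filter edgeR called 3 at 4 Gy, beside 4.44%. Counted by groups that do not overlap in CPM, 2 Gy had 4 genes above and 1 below the controls (7.22% and 4.64% of all genes), 4 Gy 1 above and 3 below (13.2% and 7.26%) and 7 Gy 1 above and 4 below (13.3% and 12.6%). The 3 doses share their 3 control libraries.

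**Figure D2:**
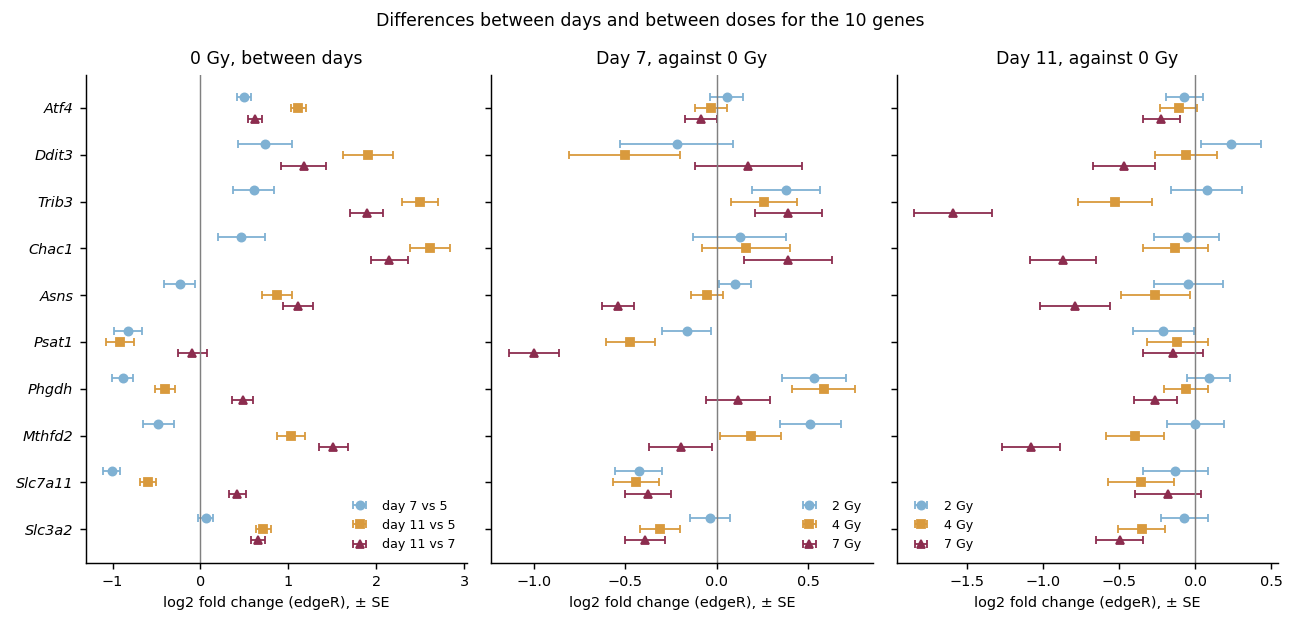
Log2 fold change of the 10 genes (edgeR, bars ± SE) between days without irradiation (left), and of 2, 4 and 7 Gy against 0 Gy at day 7 (middle) and day 11 (right). At day 7 the 7 Gy triangle lies left of 0 for Psat1 (-1.0) and Asns (-0.54) and right of it for Trib3 (0.39), and at day 11 all 10 triangles lie left of 0, farthest for Trib3 (-1.59).

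Proliferation moved with the 7 Gy result at day 7: the 14 genes summed to 379 to 442 CPM against 636 to 788 CPM in the controls, and 5 of 14 were lower, or 9 with the culture as a block. Basal and stratified markers summed to 18459 to 24844 CPM against 18761 to 20574 CPM, and the fibroblast markers to 368 to 449 CPM against 208 to 398 CPM, with 1 of 9 higher under the block and 0 called by edgeR without it (1 at an unadjusted p under 0.05). Their part in the result was not tested. Of all 19346 genes tested, 620 were called higher at 7 Gy without the block and 725 lower (3.75%). Of the pathway lists at 7 Gy, the stress targets had 4 of 14 tested genes lower, with Ero1a, an oxidase of the endoplasmic reticulum, at -1.71 ± 0.19 on the log2 scale (81.4 ± 6.3 against 264 ± 50.6 CPM), Vldlr at -1.11 ± 0.15 and Cebpb at -0.68 ± 0.15, and 1 higher, Ddit4, an inhibitor of mTORC1 signalling (0.79 ± 0.14). Their median was -0.11. The serine, one-carbon and proline list had 2 of 12 lower, the mitochondrial folate enzymes Aldh1l2 (-1.71 ± 0.29) and Shmt2 (-0.71 ± 0.13), and a median of -0.38. Of the transporters 2 of 10 were lower, the glutamine transporter Slc1a5 (-0.84 ± 0.20) and Slc7a5 (-0.71 ± 0.14), with a median of -0.27. Among the synthetases 1 of 20 was higher, Wars (0.51 ± 0.13), or 3 with the culture as a block, with a median of 0.06. In the ATF6 and XBP1 arm 1 of 19 was lower, Xbp1 itself (-0.86 ± 0.14), or 2 with the block. The eIF2α kinases and phosphatases had 0 of 7 called by edgeR, with 3 at an unadjusted p under 0.05 and 1 higher with the culture as a block.

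At day 11 the values against dose are a description, because they hold the contrast by which Trib3 was noticed. Trib3 had 45.2, 41.8 and 58.6 CPM at 0 Gy, 52.6, 37.0 and 68.2 CPM at 2 Gy, 26.2, 29.7 and 47.5 CPM at 4 Gy and 13.3, 15.7 and 21.6 CPM at 7 Gy. The 7 Gy libraries lay below all others of that day, at 34.7% of the control mean, and near the range of the unirradiated libraries of day 7. Mthfd2 was ordered in the same way, with 83.1, 60.6 and 82.8 CPM at 0 Gy, 85.7, 61.6 and 85.5 CPM at 2 Gy, 51.4, 48.1 and 76.5 CPM at 4 Gy and 42.5, 33.5 and 33.6 CPM at 7 Gy, or 48.4% of the control mean at the highest dose. Chac1 had 30.5, 39.9 and 44.8 CPM at 0 Gy, 41.6, 27 and 44.7 CPM at 2 Gy, 29.7, 28.8 and 48.9 CPM at 4 Gy and 22.7, 21.8 and 19.9 CPM at 7 Gy. For Chac1 the doses below 7 Gy overlapped the controls widely and the 7 Gy libraries lay together below all of them.

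Asns had 126, 94.4 and 156 CPM at 0 Gy and 78.6, 65.5 and 80.8 CPM at 7 Gy, with no overlap, and 148, 85.0 and 144 CPM at 2 Gy and 90.5, 89.1 and 142 CPM at 4 Gy, within the span of the controls or just outside it. Slc3a2 had 259.7, 239 and 265 CPM at 0 Gy, 273, 196 and 278 CPM at 2 Gy, 193, 176 and 239.9 CPM at 4 Gy and 176, 156 and 224 CPM at 7 Gy. Ddit3 had 28.3, 20.1 and 25.6 CPM at 0 Gy and 21.7, 14.2 and 19.1 CPM at 7 Gy, overlapping, though each culture was lower than its own control.
The other 4 genes overlapped their controls at 7 Gy. Atf4 went from 474 ± 25.3 CPM (SD, n = 3) to 416 ± 50.6 CPM, Psat1 from 116 ± 25.6 to 108 ± 11.7 CPM, Phgdh from 71.8 ± 10.1 to 61.6 ± 1.6 CPM and Slc7a11 from 64.5 ± 3.0 to 58.4 ± 7.0 CPM. Psat1, the gene with the largest decline after 7 Gy at day 7, was thus close to its control at day 11.

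The fitted 7 Gy differences at day 11 were -1.59 ± 0.25 for Trib3, -1.08 ± 0.19 for Mthfd2, -0.87 ± 0.22 for Chac1, -0.79 ± 0.23 for Asns, -0.50 ± 0.15 for Slc3a2, -0.47 ± 0.20 for Ddit3, -0.26 ± 0.14 for Phgdh, -0.22 ± 0.12 for Atf4, -0.18 ± 0.21 for Slc7a11 and -0.15 ± 0.20 for Psat1 (log2 scale, SE). All 10 were below 0, with a median of -0.48 beside 0.01 over all 19901 genes. The fit called 2 of the 10 lower, beside 0.462% of all genes, namely Mthfd2 and Trib3, the gene by whose low level here the list was chosen. With the culture as a block it called 6, adding Chac1, Asns, Slc3a2 and Ddit3, beside 2.91%. DESeq2 called 4 (2.73% of all genes in either direction), and edgeR without the filter on low counts 5 (4.12%). On dose as a number the fit called 2 without and 6 with the block (2.51% and 6.8% of all genes), and for the difference between the days in the 7 Gy response 1 and 3 (3.01% and 5.26%). Without mTG14 of the 0 Gy group the count of 7 against 0 Gy was 0, and without mTG11 of that group, or mTG12 or mTG14 of the 7 Gy group, it was 1. In CPM 5 of the 10 did not overlap their controls, all below (8.39% of all genes). Nothing is read from these counts, since the contrast chose the list.

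At 4 Gy at day 11 all 10 estimates were also below 0, from -0.53 ± 0.24 for Trib3 and -0.40 ± 0.19 for Mthfd2 to -0.06 ± 0.14 for Phgdh, with the same control libraries. There edgeR called 0 of the 10 (0 lower of all genes, or 0.0%), 2 had an unadjusted p under 0.05, DESeq2 called 0, and edgeR without the filter on low counts called 1 (1.59% of all genes). With the culture as a block 2 were called, beside 0.332% of all genes lower. They were Slc3a2 (-0.36, edgeR adjusted p = 0.039) and Trib3. Nothing is read from the Trib3 call, because its controls here were those of the contrast that chose the list. At 2 Gy the estimates ran from -0.21 ± 0.20 for Psat1 to 0.23 ± 0.20 for Ddit3, edgeR and DESeq2 called 0 of them (edgeR 0.0% of all genes), and 0 had an unadjusted p under 0.05. The comparison of 4 with 2 Gy at day 11 used libraries outside the contrast that chose the list. Trib3 was lower at 4 Gy in 3 of 3 cultures, by 0.60 on the log2 scale (SE 0.24), a difference that did not pass the test (edgeR adjusted p = 0.945, or 0.139 with the culture as a block). Here edgeR called 0 of the 10 genes and 0 of all genes, or 0.0%, with 1 of the 10 at an unadjusted p under 0.05.

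**Figure D3:**
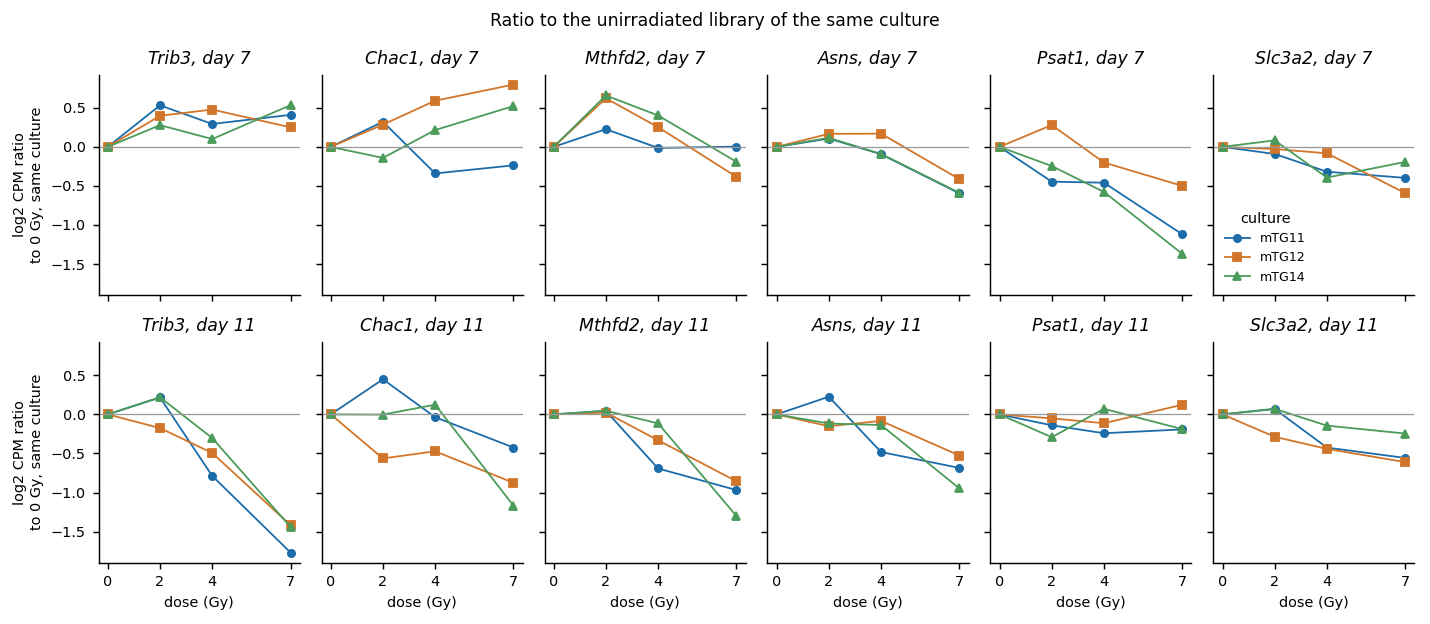
Log2 ratio of CPM to the unirradiated library of the same culture and day (vertical) against dose in Gy (horizontal) for 6 genes, day 7 above and day 11 below, with a line for each of the 3 cultures. At day 7 all 3 Trib3 lines lie above 0 at each dose while Psat1 ends below it, and at day 11 the Trib3 and Mthfd2 lines end below 0 in all 3 cultures while Psat1 stays near it.

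Expressed as the change from day 7 to day 11 within a dose, in 1 fit over the 24 libraries of both days for the irradiated groups and in the fit of unirradiated libraries for 0 Gy, the log2 difference of Trib3 was 1.89 at 0 Gy, 1.60 at 2 Gy, 1.12 at 4 Gy and -0.06 at 7 Gy. Chac1 had 2.15, 1.97, 1.87 and 0.92, Ddit3 1.18, 1.64, 1.64 and 0.57, and Mthfd2 1.51, 1.01, 0.95 and 0.66. Asns changed by 1.11, 0.97, 0.92 and 0.89 and Atf4 by 0.62, 0.50, 0.57 and 0.52, with little spread between doses, while Psat1 went from -0.09 and -0.13 to 0.28 and 0.79. Within 2 Gy 8 of the 10 genes rose from day 7 to day 11 (7.52% of all genes) and within 4 Gy 7 (7.71%), Trib3 among them in both (edgeR adjusted p = 2.5e-05 and 0.00135), in libraries that the choice of the list had not used. Psat1 and Phgdh were not called at either dose, and Slc7a11 not at 4 Gy (edgeR adjusted p = 0.0667, or 0.0297 with the culture as a block). Within 7 Gy the fit called 7 of the 10 higher, beside 6.15% of all genes, and not Trib3, Ddit3 and Phgdh. Nothing is read from this count, since it rests on the 7 Gy libraries of day 11 by whose low Trib3 level the list was chosen. The difference between the days in the response to 2 Gy or to 4 Gy was called by edgeR for 0 of the 10 genes (0.0% and 0.109% of all genes called), with 0 and 3 at an unadjusted p under 0.05, and used the control libraries of day 11 that the choice of the list had used.

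Proliferation genes and markers of other cells moved at day 11 as well. The 14 proliferation genes summed to 417 to 441 CPM at 7 Gy against 191 to 215 CPM at 0 Gy (11 of 14 higher, or 14 with the culture as a block), in the direction opposite to day 7. Multiciliated cell markers summed to 9.83 to 25.8 CPM against 33.0 to 68.1 CPM (2 of 5 lower, or 5 with the block). Follicular cell markers summed to 80.6 to 91.8 CPM against 96.8 to 135 CPM (0 of 7 called by edgeR, 1 at an unadjusted p under 0.05, 1 lower with the block), and fibroblast markers to 253 to 351 CPM against 159 to 256 CPM (0 of 9, 1 at an unadjusted p under 0.05, 4 higher with the block). Their part in the values was not tested. Of all 19901 genes tested, 210 were called higher at 7 Gy without the block and 92 lower (0.462%). Of the pathway lists, the serine, one-carbon and proline genes had 2 of 12 lower at 7 Gy, Aldh1l2 (-1.43 ± 0.30) and Pycr1 (-1.09 ± 0.17). Without the block edgeR called 0 of 15 stress targets, 0 of 20 synthetases and 0 of 10 transporters, with 8, 12 and 5 at an unadjusted p under 0.05. With the culture as a block it called 7, 7 and 3 of them lower, beside 2.91% of all genes. The list medians were -0.38 for the stress targets, -0.47 for the transporters, -0.23 for the synthetases, -0.23 for serine, one-carbon and proline synthesis and 0.10 for the eIF2α kinases and phosphatases. In the ATF6 and XBP1 arm the median was -0.07 and 1 of 19 genes was higher, Sdf2l1 (0.82 ± 0.18), with 1 lower under the block.

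**Figure D4:**
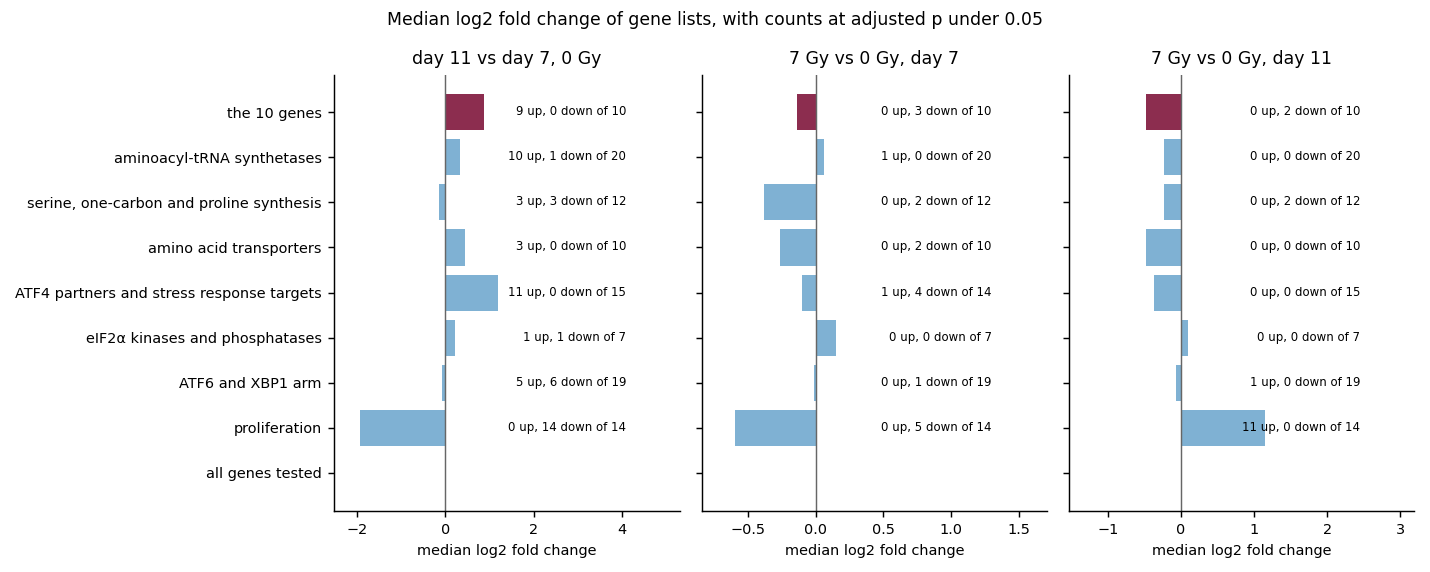
Median log2 fold change (bars from 0) of the 10 genes and of 7 lists, with all genes tested for comparison, from day 7 to day 11 without irradiation and for 7 Gy against 0 Gy at day 7 and day 11; the text in each panel gives the genes called at an adjusted p under 0.05. The 10 genes stand at 0.88, -0.14 and -0.48, all genes within 0.01 of 0, and proliferation at -1.93, -0.60 and 1.14.

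The 10 genes did not vary as 1 block. Over the 27 libraries Pearson's r of log2(CPM + 1) between Asns and Mthfd2 was 0.93 and between Trib3 and Chac1 0.91, while Psat1 had -0.27 with Trib3 and 0.75 with Slc7a11. Within the 12 libraries of day 11 Trib3 had 0.91 with Mthfd2 and 0.88 with Asns, and within the 12 of day 7 it had 0.31 and -0.27. At day 7 Psat1 went with Asns (0.87). These values are a description over libraries that share days, doses, cultures and depth.
Outside the list, of 9527 genes the 5 most like Trib3 over the 27 libraries were Nfe2l1, a factor that controls proteasome genes (0.94), Ghitm (0.93), Rabac1 (0.92), Pycr1 (0.92) and Tpt1 (0.90). Within the 12 libraries of day 11 these had 0.92, 0.90, 0.91, 0.95 and 0.87, but within the 12 of day 7 only 0.31, 0.34, -0.02, 0.11 and -0.19. Mean Pycr1 levels without irradiation were 5.30, 10.0 and 27.6 CPM on days 5, 7 and 11, and after 7 Gy 13.2 CPM on day 11. The 5 most like Asns were the tyrosyl-tRNA synthetase gene Yars (0.94), Atf5 (0.90), Artn, Tmem125 and Dennd4a (0.89 each). Within the 12 libraries of day 7 these had 0.69, -0.03, 0.33, 0.51 and 0.67.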

How the data were processed

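Smart3SEQ libraries, which read a tag at the 3′ end of each polyA RNA, were made from organoid RNA (RIN above 9). The authors deposited a table of estimated counts, 1 row for each gene symbol, without normalization. The submitters' processing notes list STAR, edgeR and the build GRCm39 without versions. Which tool counted the reads, with what strand setting, and whether molecular identifiers were collapsed is not given in the sources used here. Of the non-zero values 56.3% were whole; how the fractions arose is not given, and values of paralogs and overlapping genes are uncertain.

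Groups were taken from the sample labels. The labels number the mice 1 to 3, the series describes 4 mice, and the column names give 3 culture names with no stated link to those numbers, so columns were placed by day and dose. Estimated counts were rounded to whole numbers and tested with edgeR 4.0.16 in R 4.3.3 (TMM factors, quasi-likelihood test, a summed count of 10 or more in the libraries fitted for a gene to be tested, Benjamini-Hochberg adjustment over all genes tested, threshold 0.05). Separate fits held the 9 unirradiated libraries (18442 genes), the 12 libraries of day 7 (19346), the 12 of day 11 (19901) and the 24 of both days (21928), without a block. Each gave log2 fold changes. The SE printed with edgeR values was derived from the test, as the absolute log2 fold change divided by the square root of the F statistic. Same-culture libraries deviated together from their group means in the unirradiated, day 7 and day 11 libraries (correlations 0.12 to 0.449, means 0.216, 0.281 and 0.358). Subtracting the group means ties the means between cultures (-0.108, -0.14 and -0.179) to these values, so they are no separate reference. The column names were taken to pair the libraries. The fit with the culture as a block is printed where it changes a call of the 10 genes or moves a count of a described list by over 1.5 times. No 2 libraries of a group agreed within sampling noise (chi-square per degree of freedom at least 3.39).

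The 10 genes and all lists were chosen with earlier results of these data known. The 10 are all named. Of each list, up to 3 called genes in each direction with the largest log2 fold change and a mean of at least 10 CPM are named, and of genes outside the list the 5 with the highest Pearson correlation of log2(CPM + 1) with Trib3 and with Asns. Alternatives were the block, no TMM factors, no filter, a filter of 1 CPM in 3 libraries, DESeq2 1.42.0, only the compared groups, and each library left out. Only the fits of the unirradiated and of the day 7 libraries, without a block, were tested on simulated counts. These counts held no culture effect, and the other fits were not tested in this way. Totals set the precision, and floors of 3 counts cover counting error only. RefSeq promoters of GRCm38.p6 were placed on GRCm39 by exact match.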

Additional observations from a re-analysis of the deposited data

Results flagged for a closer look

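Trib3 was singled out because all 3 cultures moved one way at day 7 and the other way at day 11. After 4 Gy each of the 3 cultures was above its own unirradiated library at day 7 (1.23, 1.39 and 1.07 times) and below it at day 11 (0.579, 0.71 and 0.811 times), a difference between the days of -0.77 on the log2 scale (SE 0.33). After 7 Gy the cultures stood at 1.33, 1.19 and 1.45 times their control at day 7 and at 0.294, 0.374 and 0.368 times at day 11, a difference of -1.95 (SE 0.34). The day 7 differences from the control did not pass the test at any dose. No p is given for either difference between the days. Both use the control libraries of day 11 from the contrast that brought up the gene, and the 7 Gy one holds that contrast itself. Estimates of other genes also changed sign between the days, such as Chac1 after 7 Gy (0.39 at day 7 and -0.87 at day 11), Ddit3 after 7 Gy (0.17 and -0.47) and Mthfd2 after 4 Gy (0.19 and -0.40), without such a split of all cultures.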

How the results depend on the processing

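Without the filter on low counts 7 of the 10 genes were called from day 5 to day 7 in place of 4 (16.8% of all genes called), and 1, 3, 1 and 5 in place of 0, 0, 0 and 2 for 2 Gy and 4 Gy at day 7 and 4 Gy and 7 Gy at day 11 (1.42%, 4.44%, 1.59% and 4.12%). DESeq2 called 1 for 4 Gy at day 7 (3.03%) and 4 for 7 Gy at day 11 (2.73%). With the culture as a replicate block the counts were 3 for 4 Gy at day 7, 2 for 4 Gy at day 11 and 6 for 7 Gy at day 11, and, in fits added after seeing the data, 1 for 7 against 4 Gy at day 11 (0.246% of all genes; 0 and 0.0% without it), 3 for the difference between days in the 7 Gy response (5.26%; 1 and 3.01% without it) and 6 for the dose slope at day 11 (6.8%; 2 and 2.51% without it). Nothing is read from counts that hold the 7 Gy libraries of day 11, which chose the list, or from calls of Trib3 against the day 11 controls. Among counts of the 10 genes the block changed no other by over 1.5 times. Leaving out 1 library gave 0 to 1 for 4 Gy at day 7 and 0 to 2 for 7 Gy at day 11. The cause of these changes was not tested, apart from the fewer samples of a left-out library. No called value changed sign under any alternative run. Without TMM factors the median of all genes shifted by -0.15 from day 5 to day 7 and by -0.14 from day 5 to day 11, and Slc3a2 between days 5 and 7 went from 0.06 to -0.09 without passing either way. With 3 libraries a group, and 12 to 145 counts for Ddit3 and 14 to 186 for Chac1 in a library, small changes of these genes were not detectable at this depth.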

Other observations

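Markers of cells that the organoids could also hold were low or moved with the days. The 3 C cell markers summed to 0.0 to 3.04 CPM over the 27 libraries and the 3 endothelial markers to 0.0 to 1.17 CPM. The 4 leukocyte markers summed to 5.52 to 14.3 CPM at day 5 and 38.1 to 65.2 CPM at day 11 without irradiation. Most counts of this list came from Cd68 (3098 in all 27 libraries), with 570 for Lyz2, 12 for Ptprc and 0 for Cd3e. Of the 2 tested, 1 was called higher from day 5 to day 11, beside 21.3% of all genes. The 5 markers of epithelium in general summed to 890 to 1078 CPM at day 5 and 2084 to 3158 CPM at day 7. Between these days 5 of 5 rose, beside 2211 of all 18442 genes called higher. Their part in the values of the 10 genes was not tested.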
